A study of Rattus norvegicus with 18 samples.

Results

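Amy2a3, Impad1, Timm17b, Fam131a, Zfp862 and Ptgdrl are 6 of the 34873 genes in a count table of rat brain RNA-seq. They were chosen by these same counts, which lay near 0 in one group of libraries and well above it in another. Each was found by its symbol in the table, and of the 2 rows of Fam131a the one with the higher mean count was used. All 6 had enough counts to enter the fit. Because these counts chose the genes, their differences between groups are given as a description, with no test.

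The CLCF1 group was rats that inhaled carbon monoxide and are labelled as a CLCF1 knock-down. The CO group was wild-type rats that inhaled carbon monoxide, and the NC group was wild-type rats with no treatment named. Each group had 6 libraries. The gas was given at 1000 ppm over 40 min and then at 3000 ppm over 20 min, until carboxyhemoglobin was above 60%. The knock-down is described as lentiviral RNA interference in macrophages grown from bone marrow, which were injected into rats whose own macrophages had been depleted with liposomes. Whether CO and NC rats were depleted or given macrophages is not stated, so the treatments of CLCF1 and CO rats may differ beyond CLCF1 itself. No strain, age, brain region or time after exposure is given. The labels do not say whether 6 libraries are 6 animals, so p-values measure only how these libraries vary, and that variation may be technical.

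Amy2a3 encodes a pancreatic alpha-amylase, an enzyme that cuts starch and is made and secreted by acinar cells of the pancreas. Impad1, also called Bpnt2, encodes a Golgi phosphatase that clears the by-product of sulfate transfer to sugars. Timm17b encodes a channel subunit of the TIM23 complex, which brings proteins with a targeting sequence through the inner mitochondrial membrane. Fam131a encodes a protein of little known function. Zfp862 encodes a zinc finger protein. Ptgdrl encodes a receptor of the prostaglandin D2 receptor family, and in brain prostaglandin D2 is made largely by the synthase Ptgds in meninges, choroid plexus and glia.

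The libraries held 15.1 to 20.3 M counts, and 16581 genes were tested. The targeted gene, Clcf1, had 0 to 3 counts in CLCF1 libraries, 80 to 118 in CO libraries and 1 to 7 in NC libraries. Markers of neurons summed to 5490 to 6500 CPM (depth-scaled counts) in CLCF1 libraries, 6050 to 6580 in CO libraries and 4850 to 5320 in NC libraries, and none of the 8 was at 0 throughout. Libraries 3 to 6 of each group stood apart. In 42660 cases a gene had no count in libraries 1 and 2 of its group, and 0 of these had a count in libraries 3 to 6. In library 1 or 2 of another group, 6.17% to 11.9% of such genes had counts. Values of libraries 1 and 2 alone are therefore given beside those of all 6. The p-values over 6 libraries take libraries 3 to 6 as independent samples, which these shared zeros put in doubt. Such p-values may be too small, and leaving out single libraries does not remove this limit.

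In CO against NC, Amy2a3, Timm17b and Fam131a were higher and Impad1, Zfp862 and Ptgdrl were lower. In CLCF1 against CO, Zfp862 and Ptgdrl were higher, and Amy2a3 and Fam131a were lower. Impad1 was low and Timm17b was present in both groups that inhaled carbon monoxide. The 6 libraries of CO lay wholly above or below those of NC for 4 of the 6 genes, where 6.35% of all genes tested had no overlap. CLCF1 and CO did not overlap for 3 of the 6 (7.12% of all genes), and CLCF1 and NC for 2 of the 6 (5.63% of all genes). These counts come from the same values that chose the genes. The fold changes of all 6 genes kept their sign in libraries 1 and 2 alone, in all 3 comparisons. Those libraries are part of the counts that chose the genes, so this is no independent check. Some of these changes were small, as for Zfp862 in CLCF1 against NC (log2 fold change -0.29 in libraries 1 and 2). Errors of CPM are SDs (n = 6 libraries), and errors of log2 fold changes are standard errors from edgeR. Adjusted p-values are given for other genes only, from the quasi-likelihood test of edgeR, adjusted over all genes tested by Benjamini and Hochberg's method. In libraries 1 and 2 alone, none of the 58 calls of neighbours and related genes passed the threshold by edgeR. Counts at an unadjusted p under 0.05 there follow for CO over NC, CLCF1 over CO and CLCF1 over NC. They were 3, 4 and 0 of all 36 neighbours and 4, 3 and 2 of all 111 related genes. Over the 16820 genes fitted they were 594, 817 and 418.

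**Figure D1:**
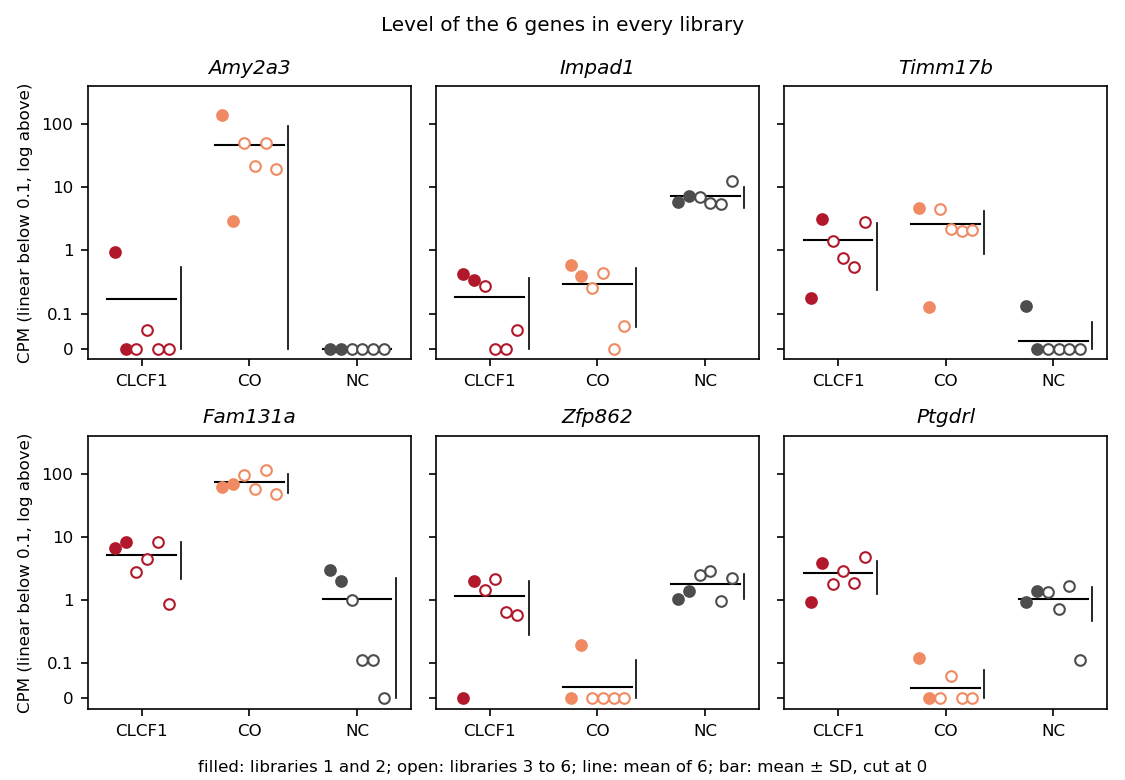
CPM of the 6 genes in each library of the CLCF1, CO and NC groups, on an axis that is linear below 0.1 and logarithmic above (filled points, libraries 1 and 2; open points, libraries 3 to 6; lines, mean and SD). Amy2a3 lies between 2.90 and 137 CPM in CO and at 0 in all 6 NC libraries, and for each of the other 5 genes the low group holds 1 or more libraries above 0.

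Amy2a3 (chromosome 2, positions 216339154 to 216382260, minus strand, as the table gives them in a build it does not name) had the widest difference. CLCF1 library 1 held 16 counts, CLCF1 library 4 held 1, and the other CLCF1 libraries held 0. Its CO libraries held 45 counts at the lowest, 563 at the median and 2287 at the highest, whereas the 6 NC libraries held 0. The CO libraries thus lay above every library of the other groups, but within CO, library 1 was at 137 CPM and library 2 at 2.90. The mean was 0.168 ± 0.385 CPM in CLCF1, 46.6 ± 47.8 CPM in CO and 0 in NC, where a count of 0 allows up to 0.0278 CPM over the group. CO was at least 1712-fold higher than NC, with 3 counts over the NC group as the floor. This bound was at least 1033-fold without CO library 1, and at least 885-fold in libraries 1 and 2 alone. CLCF1 was 312-fold lower than CO. That ratio was 4511-fold without CLCF1 library 1, which held 16 of the 17 CLCF1 counts, 188-fold without CO library 1 and 169-fold in libraries 1 and 2 alone.

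The sequence around the RefSeq transcript start of Amy2a3 is shown because Amy2a3, Timm17b and Fam131a are the genes that were higher in CO than in NC. It runs from 250 bases before the start to 50 after, 5′ to 3′ on the minus strand of chr2:204014363-204014662 in build GRCr8, which may not be the build of the count table. Capitals mark TATAAA at position -27 and a CCAAT box on the opposite strand (ATTGG) at position 44, counted from the start.
Amy2a3: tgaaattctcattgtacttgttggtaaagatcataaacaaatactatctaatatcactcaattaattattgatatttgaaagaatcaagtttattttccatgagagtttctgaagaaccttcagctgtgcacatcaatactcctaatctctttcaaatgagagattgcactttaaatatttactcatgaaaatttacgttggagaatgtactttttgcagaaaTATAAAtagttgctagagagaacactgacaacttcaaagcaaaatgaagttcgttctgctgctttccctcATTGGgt
Of 33469 RefSeq promoter windows of this length, 14.2% hold TATAAA and 37.5% hold CCAAT on either strand. A match describes the sequence and is not a measured site. RefSeq windows were found for 4 of the 6 genes, all but Impad1 and Ptgdrl.

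Genes of other pancreatic digestive proteins were read as markers of exocrine pancreas, and they did not share 1 order of the groups. Of 29 rows on that list, 22 had any count, 5 of them in CO alone, 0 in CLCF1 alone and 2 in NC alone. The 5 were Cpb1, 2 rows of Prss2, Pnliprp1 with 7 counts and Prss1 with 2. The share of all genes with counts in 1 group alone was not counted. Cpb1, the gene of carboxypeptidase B, had 0 counts in all CLCF1 and NC libraries, and 46, 1, 8, 7, 54 and 6 in CO libraries 1 to 6. Clps, the gene of the lipase cofactor colipase, had 0 counts in CLCF1 libraries, 34, 8, 7, 13, 29 and 20 in CO libraries, and 2 in all of NC. Prss2, a trypsin gene, had 0 counts in CLCF1 and NC libraries, and 29, 0, 30, 4, 20 and 6 in CO libraries on the higher of its 2 rows. Of CO libraries 1 and 2, the second held the fewer counts of each, as it did of Amy2a3. These 3 genes are named after their values were seen, and none of them had enough counts to be tested. The defining markers Gp2, Zg16, Reg1a and Spink1 were at 0 in every library. Other genes of the list had another order. Cela1, an elastase gene, summed to 76 counts in CLCF1, 30 in CO and 2 in NC, and Sycn, a zymogen granule gene, to 71 in CLCF1, 37 in CO and 11 in NC. Cel, Pla2g1b, Reg3b and Ptf1a were highest in NC, with sums of 55, 22, 11 and 7 counts. Their sums were 11, 4, 0 and 2 in CO and 14, 1, 0 and 0 in CLCF1. Pnlip, the pancreatic lipase gene, was at 10.2 CPM in CLCF1, 15.2 in CO and 12.3 in NC. The summed list ran from 19.4 to 34.7 CPM in CLCF1, 33.4 to 41.2 in CO and 22.7 to 34.9 in NC, and 0 of its 7 tested genes passed in CO against NC by edgeR. Ctrl, a chymotrypsin-like protease gene, fell in CLCF1 against CO (log2 fold change -1.22 ± 0.41, adjusted p = 0.0489) and in CLCF1 against NC (-2.20 ± 0.41, adjusted p = 0.00325). The salivary gland list, whose gland also makes amylase, summed to 25.2 to 42.4 CPM in CLCF1, 21.7 to 32.2 in CO and 20.8 to 31.6 in NC, with 7 of its 10 rows at 0 in every library. Nearly all of that sum was Car6, with 8975 counts over all libraries. Vcsa1 had 2 counts in CLCF1, 16 in CO and 0 in NC, and Bhlha15 had 60 in CLCF1, 9 in CO and 44 in NC. The part of pancreatic RNA in the level of Amy2a3 was not tested.

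**Figure D2:**
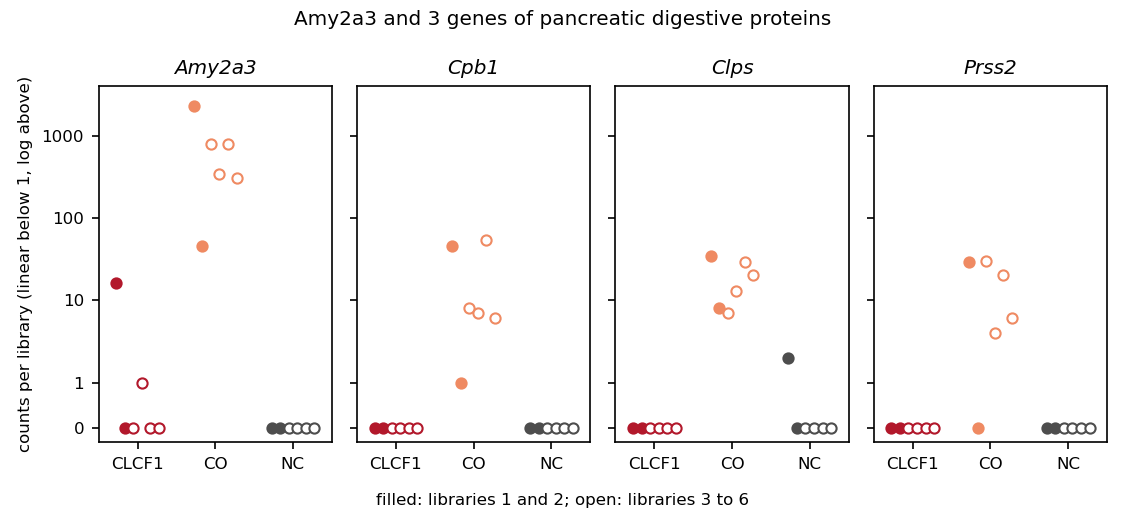
Counts per library of Amy2a3, Cpb1, Clps and the higher of 2 Prss2 rows in the CLCF1, CO and NC groups, on an axis that is linear below 1 and logarithmic above. Cpb1 and Prss2 have counts in CO libraries and 0 in all others, and Clps has 2 counts in 1 NC library. These genes were picked after their values were seen, and other genes of the list had another order.

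The nearest amylase gene was Amy1a, 46.4 kb away, which encodes the salivary type and is the one other amylase gene tested. There were 10 to 29 counts in CLCF1 libraries, 9 to 38 in CO libraries and 1 to 10 in NC libraries. Amy1a rose in CO against NC (log2 fold change 2.15 ± 0.50, adjusted p = 0.0101, higher in 35 of 36 pairs of libraries), to 1.21 ± 0.694 CPM in CO against 0.266 ± 0.194 CPM in NC. It rose in CLCF1 against NC as well (1.84 ± 0.50, adjusted p = 0.0274), a call lost without NC 3, NC 6 or CLCF1 4 (adjusted p 0.0544 to 0.0624). In CLCF1 against CO it did not pass (-0.31 ± 0.45, adjusted p = 0.684). The closest tested gene on the other side, Ntng1, an axon guidance gene, was 3490 kb away and did not pass in CO against NC (-0.40 ± 0.25, adjusted p = 0.301). Col11a1, a collagen gene 481 kb away, rose in CLCF1 against CO (1.56 ± 0.51, adjusted p = 0.0414), but leaving out any 1 of 11 libraries ended that call (adjusted p 0.0502 to 0.0865), namely each library but NC 3 to 6, CO 3 and CLCF1 1 and 4.

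Among 15 genes of starch and glycogen breakdown and storage, 1 rose and 0 fell in CO against NC, beside 12.7% of all genes called, and the median log2 fold change was -0.01, beside 0.01 over all genes tested. The 1 was Amy1a. Epm2a, the gene of the glycogen phosphatase laforin, rose in CLCF1 against CO (1.36 ± 0.39, adjusted p = 0.0214), a call lost without CLCF1 4 (adjusted p = 0.0507). Pygb, brain glycogen phosphorylase, fell in CLCF1 against NC (-0.49 ± 0.15, adjusted p = 0.0468), and leaving out any 1 of 11 libraries ended that call (adjusted p 0.0529 to 0.0899), namely all but NC 2 and 3, CO 3 to 6 and CLCF1 4.

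Impad1 (chromosome 5, positions 17633766 to 17663589, minus strand) was the gene with counts in NC and few elsewhere. Its CLCF1 libraries held 0 to 7 counts with a median of 3, its CO libraries 0 to 10 with a median of 5, and its NC libraries 89 to 223 with a median of 112. No library of CLCF1 or CO reached the lowest NC library. The mean was 0.180 ± 0.185 CPM in CLCF1, 0.291 ± 0.230 in CO and 7.28 ± 2.67 in NC. CO was 24.9-fold lower than NC (log2 fold change -4.61 ± 0.62) and CLCF1 was 40.7-fold lower than NC (-5.29 ± 0.65). CLCF1 and CO overlapped, with a log2 fold change of -0.68 ± 0.71. With libraries 1 and 2 alone, CO was 13.5-fold and CLCF1 17.8-fold lower than NC. A second row with the same Swiss-Prot entry, LOC100910881 on chromosome 17, had 0 counts in all 18 libraries, so the summed count of both rows is that of Impad1. How reads that fit both rows were counted is not given, so such reads may be missing from this sum.

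The nearest tested genes to Impad1 were far off. Penk, the proenkephalin gene, 572 kb away, rose in CO against NC (1.12 ± 0.36, adjusted p = 0.0465), and leaving out any 1 of 11 libraries ended that call (adjusted p 0.0509 to 0.115), namely all but NC 2 and 4, CO 2 and 3 and CLCF1 2, 3 and 5. Fam110b, 1240 kb away, fell in CO against NC (-0.76 ± 0.19, adjusted p = 0.0142). Ubxn2b, the next gene on that side, fell in CO against NC (-0.84 ± 0.23, adjusted p = 0.0257), a call lost without NC 3, NC 5 or CO 3 (adjusted p 0.0527 to 0.0639). It rose in CLCF1 against CO (0.80 ± 0.23, adjusted p = 0.0244), a call lost without CO 3 or CLCF1 5 (adjusted p 0.052 to 0.0667). These changes were far smaller than that of Impad1.

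A list of 23 genes, all tested, held genes that make or carry the sulfate donor PAPS, transfer sulfate or clear the by-product PAP. It also held the inositol phosphatase genes Impa1, Impa2 and Inpp1. In CO against NC 2 rose, 1 fell and 20 did not pass, and in CLCF1 against CO 2 rose and 4 fell, beside 12.7% and 17.0% of all genes called. The closest relative, Bpnt1, the cytosolic PAP phosphatase gene, did not pass in CO against NC (0.06 ± 0.13, adjusted p = 0.816), and its mean was 112.5 ± 10.7 CPM in CLCF1, 93.0 ± 24.2 in CO and 89.5 ± 3.48 in NC. Chst3, which sulfates chondroitin, rose in CO against NC (1.32 ± 0.30, adjusted p = 0.00847) and fell in CLCF1 against CO (-1.76 ± 0.30, adjusted p = 0.00129). Sult4a1, a brain sulfotransferase, likewise rose in CO against NC (0.48 ± 0.12, adjusted p = 0.0157) and fell in CLCF1 against CO (-0.76 ± 0.12, adjusted p = 0.000748). Papss2, a PAPS synthase, fell in CO against NC (-0.94 ± 0.18, adjusted p = 0.00355) and rose in CLCF1 against CO (0.67 ± 0.18, adjusted p = 0.0177). These comparisons share the CO libraries. Tpst2, a protein-tyrosine sulfotransferase, fell in CLCF1 against CO (-0.55 ± 0.13, adjusted p = 0.00651) and in CLCF1 against NC (-0.54 ± 0.13, adjusted p = 0.0116). Ndst2, which sulfates heparan, fell in CLCF1 against CO (-3.43 ± 1.05, adjusted p = 0.0311), a call lost without CO 2 or CLCF1 3, 4, 5 or 6 (adjusted p 0.0589 to 0.0607). Ust, which sulfates uronic acid, fell in CLCF1 against NC (-1.07 ± 0.33, adjusted p = 0.0458), a call lost without NC 2, 3, 4 or 6, CO 1, or any of CLCF1 1 to 5 (adjusted p 0.0519 to 0.0885).

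Timm17b (chromosome X, positions 15340839 to 15347591, minus strand) was present in both groups that inhaled carbon monoxide and nearly absent in NC. Its CLCF1 libraries held 3 to 64 counts with a median of 20 and its CO libraries 2 to 77 with a median of 33.5. NC library 1 held 2 counts and the other NC libraries 0. The lowest CO library thus held as many counts as the highest NC library, and 35 of 36 pairs of libraries were higher in CO. The mean was 1.47 ± 1.23 CPM in CLCF1, 2.58 ± 1.70 in CO and 0.0221 ± 0.0541 in NC. On the summed counts the ratio of CO to NC was 140.5 (95% exact binomial interval 38.5 to 1167, counting error only) and that of CLCF1 to NC was 81.7 (22.3 to 680). Without NC library 1 the NC group was at 0, and CO was at least 80.6-fold and CLCF1 at least 46.9-fold higher. The ratio of CO to NC was 45.0, and that of CLCF1 to NC 32.9, in libraries 1 and 2 alone. Within a group the gene varied widely, from 0.179 CPM in CLCF1 library 1 to 3.11 in CLCF1 library 2, and from 4.61 CPM in CO library 1 to 0.129 in CO library 2. CLCF1 and CO differed by a log2 fold change of -0.81 ± 0.64.

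The RefSeq promoter of Timm17b is chrX:17275291-17275590 of GRCr8, minus strand, with CCAAT in capitals at positions -101 and -59.
Timm17b: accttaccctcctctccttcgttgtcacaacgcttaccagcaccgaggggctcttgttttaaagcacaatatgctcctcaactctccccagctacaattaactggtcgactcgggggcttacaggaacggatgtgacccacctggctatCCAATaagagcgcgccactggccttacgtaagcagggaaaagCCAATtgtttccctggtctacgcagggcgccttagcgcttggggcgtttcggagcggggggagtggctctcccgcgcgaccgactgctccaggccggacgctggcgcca
The other motifs searched on both strands were GGGCGG, a GC box held by 33.1% of all windows, and ACGTG, the core of the element bound by hypoxia-inducible factors, held by 19.3%. No window of Amy2a3, Timm17b or Fam131a holds either.

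In the count table Timm17b lies in a stretch of chromosome X where several genes are listed in pairs, and RefSeq GRCr8 lists 1 gene of each. Its pair, LOC100911130 (start 15441651), has the same Swiss-Prot entry and had 0 counts in all 18 libraries, so the sum of both rows is that of Timm17b. Pcsk1n, the gene of the secreted inhibitor proSAAS, 13.2 kb away, had 0.375 ± 0.388 CPM in CLCF1, 1.80 ± 1.12 in CO and 0.471 ± 0.336 in NC. It fell in CLCF1 against CO (log2 fold change -2.27 ± 0.65, adjusted p = 0.0216) and did not pass in CO against NC (1.92 ± 0.63, adjusted p = 0.0516). Its pair LOC100911286 carried far more counts, with 20.7 ± 7.53 CPM in CLCF1, 14.2 ± 6.99 in CO and 11.8 ± 5.50 in NC. The sum of this pair was 21.1 ± 7.75 CPM in CLCF1, 15.96 ± 7.44 in CO and 12.26 ± 5.41 in NC, so it was not lower in CLCF1 than in CO. The row of Hdac6, a tubulin deacetylase gene, that lies 49.3 kb away fell in CLCF1 against CO (-1.92 ± 0.55, adjusted p = 0.0230). The other Hdac6 row was too low to be tested, at 0.141 ± 0.161 CPM in CLCF1, 0.0822 ± 0.081 in CO and 0.558 ± 0.348 in NC. The sum of the Hdac6 rows was 3.38 ± 2.39 CPM in CLCF1, 12.4 ± 4.08 in CO and 6.38 ± 5.94 in NC. Suv39h1l1, named after a histone methyltransferase, fell in CLCF1 against CO (-0.44 ± 0.12, adjusted p = 0.0196) and against NC (-0.54 ± 0.12, adjusted p = 0.00953). Pqbp1, a splicing factor gene that starts 0.547 kb from Timm17b, did not pass in any comparison (CO against NC 0.01 ± 0.15, adjusted p = 0.964). Rows with the same entry can share reads, and how the counting divided such reads is not given in the sources used here.

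Timm17a, the paralog that can take the same place in the TIM23 complex, had far more counts and did not pass. Since how reads of the Timm17b pair were counted is not given, the levels below compare counts and not amounts of RNA. Per kilobase of transcript, Timm17b averaged 2.82 CPM in CLCF1, 4.97 in CO and 0.0426 in NC, whereas Timm17a averaged 70.3 in CLCF1, 79.1 in CO and 80.5 in NC. For Timm17a, the log2 fold change of CO against NC was -0.02 ± 0.11 (adjusted p = 0.909). Of 31 tested genes of mitochondrial protein import, 2 rose, 1 fell and 28 did not pass in CO against NC, beside 12.7% of all genes called. Chchd4, which folds imported proteins between the membranes, has 2 tested rows. The higher row was at 23.0 ± 5.33 CPM in CLCF1, 20.8 ± 3.20 in CO and 22.5 ± 5.62 in NC and did not pass (CO against NC -0.12 ± 0.18, adjusted p = 0.699). The lower row was at 6.15 ± 2.63 CPM in CLCF1, 1.90 ± 0.982 in CO and 7.68 ± 3.00 in NC. That row fell in CO against NC (-2.01 ± 0.38, adjusted p = 0.00315) and rose in CLCF1 against CO (1.69 ± 0.38, adjusted p = 0.00594), and reads may be divided between the rows. Tomm7, a subunit of the outer membrane channel complex, fell in CLCF1 against CO (-0.55 ± 0.15, adjusted p = 0.0195) and against NC (-0.62 ± 0.15, adjusted p = 0.0169). Other calls were smaller and depended on single libraries. Mtx1 rose in CO against NC (0.38 ± 0.12, adjusted p = 0.0395), a call lost without NC 3, 4 or 6 or CO 1, 2, 4 or 5 (adjusted p 0.0508 to 0.0851). Samm50 rose in CO against NC (0.31 ± 0.10, adjusted p = 0.0496), a call lost on leaving out any 1 of 14 libraries (adjusted p 0.051 to 0.109), all but CO 2, 4 and 5 and CLCF1 3. Timm10 rose in CLCF1 against NC (0.45 ± 0.14, adjusted p = 0.0448), a call lost on leaving out any 1 of 13 (adjusted p 0.0543 to 0.109), all but NC 4, CO 1 to 3 and CLCF1 2. Grpel2 rose in CLCF1 against CO (0.47 ± 0.15, adjusted p = 0.0408), a call lost on leaving out any 1 of 11 (adjusted p 0.0519 to 0.0809), all but NC 2, 4, 5 and 6, CO 2 and 5 and CLCF1 4.

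Fam131a (chromosome 11, positions 82875627 to 82884660, minus strand) was high in CO, intermediate in CLCF1 and low in NC. Its CLCF1 libraries held 16 to 173 counts with a median of 98.5, its CO libraries 751 to 1795 with a median of 1054.5, and its NC libraries 0 to 45 with a median of 10. Every CO library lay above every other library, and CLCF1 and NC overlapped. The mean was 5.26 ± 3.07 CPM in CLCF1, 74.3 ± 24.9 in CO and 1.04 ± 1.23 in NC. CO was 72.1-fold higher than NC (log2 fold change 6.16 ± 0.71) and CLCF1 14.1-fold lower than CO (-3.82 ± 0.61). CLCF1 was 5.13-fold higher than NC (2.34 ± 0.65). In NC, libraries 1 and 2 were at 2.98 and 2.04 CPM, and libraries 3 to 6 averaged 0.310 ± 0.472 CPM (SD, n = 4). From libraries 1 and 2 alone, CO was 27.0-fold higher than NC, CLCF1 8.54-fold lower than CO and CLCF1 3.16-fold higher than NC. Per kilobase of transcript Fam131a had the highest CO level of the 6 genes, 20.6 CPM, followed by Amy2a3 at 15.03 CPM.

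RefSeq gives Fam131a a pair of transcript starts. The first is chr11:93725870-93726169 of GRCr8, minus strand, in which capitals mark TGACG, the core of cAMP-responsive elements, at position -62, and its reverse complement CGTCA at position -13.
Fam131a: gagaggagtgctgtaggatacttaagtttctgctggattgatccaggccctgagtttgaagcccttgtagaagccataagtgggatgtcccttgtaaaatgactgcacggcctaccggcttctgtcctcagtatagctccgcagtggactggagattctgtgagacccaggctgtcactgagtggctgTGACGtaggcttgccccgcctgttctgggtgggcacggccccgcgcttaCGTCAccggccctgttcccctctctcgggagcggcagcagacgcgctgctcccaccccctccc
TGACG is in 21.2% of all windows, and the second start of Fam131a holds none of the 5 motifs.

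The neighbourhood of Fam131a is also listed in duplicate on chromosome 11 of the count table, while RefSeq GRCr8 lists 1 gene each in the order Polr2h, Clcn2, Fam131a, Eif4g1 and Psmd2. The second Fam131a row (start 83896873) had 0 counts in all 18 libraries. LOC100912571, 2.22 kb from Fam131a on the same strand and with the Swiss-Prot entry of Eif4g1, a translation initiation factor, showed the same direction. The CLCF1 libraries held 45 to 1426 counts, its CO libraries 67 to 2564 and its NC libraries 1 to 63. It rose in CO against NC (log2 fold change 5.38 ± 1.10, adjusted p = 0.00512, higher in 36 of 36 pairs) and in CLCF1 against NC (4.55 ± 1.07, adjusted p = 0.0133), and did not pass in CLCF1 against CO (-0.83 ± 0.88, adjusted p = 0.559). Those changes were 3.69 and 2.93 in libraries 1 and 2 alone. The Eif4g1 row itself was at 80.8 ± 12.2 CPM in CLCF1, 86.5 ± 33.9 in CO and 85.4 ± 14.7 in NC. The sum of Eif4g1 and LOC100912571 was 107 ± 26.9 CPM in CLCF1, 134 ± 66.9 in CO and 86.5 ± 15.1 in NC. Another row with this entry, LOC100911693 on chromosome 2, was at 49.3 ± 8.20 CPM in CLCF1, 52.6 ± 6.18 in CO and 49.2 ± 8.98 in NC.

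Both rows that overlap Fam131a can share its reads, since strand is not stated. Map3k13, a kinase gene on the same strand whose span covers Fam131a, was at 8.64 ± 3.00 CPM in CLCF1, 13.5 ± 2.94 in CO and 9.64 ± 2.55 in NC (CO against NC 0.48 ± 0.24, adjusted p = 0.192). LOC100912455, with the entry of the chloride channel gene Clcn2 on the opposite strand, overlaps Fam131a by 425 bases and was at 8.10 ± 5.74 CPM in CLCF1, 15.7 ± 5.98 in CO and 11.04 ± 3.71 in NC. Neither held as many counts as Fam131a in CO. Further off, Tmem41a fell in CLCF1 against CO (-0.84 ± 0.23, adjusted p = 0.0167). Ehhadh, a peroxisomal enzyme gene, rose in CLCF1 against CO (2.49 ± 0.84, adjusted p = 0.0488), and leaving out any 1 of 14 libraries ended that call (adjusted p 0.0522 to 0.262), all but NC 5 and CLCF1 1, 4 and 5. An unnamed locus 160.0 kb away rose in CO against NC (1.90 ± 0.53, adjusted p = 0.0248), a call lost without NC 5 or CO 3 (adjusted p 0.0507 to 0.0564), and fell in CLCF1 against CO (-2.01 ± 0.53, adjusted p = 0.0145).

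Of the other members of the family, Fam131b, which is abundant in brain, rose in CO against NC (0.74 ± 0.20, adjusted p = 0.0196), to 304.5 ± 50.6 CPM in CO against 183 ± 63.0 in NC. Fam131b did not pass in CLCF1 against CO (-0.14 ± 0.19, adjusted p = 0.673). Fam131c did not pass in any comparison. Of the 8 neuron markers, 2 rose and 0 fell in CO against NC, and of 6 markers of cortex and hippocampus 2 rose and 0 fell, beside 12.7% of all genes called. Other regional lists differed as well. Of 6 tested hypothalamic peptide genes 3 rose and 1 fell in CO against NC, with sums of 14.1 to 310 CPM in CO and 6.35 to 14.6 in NC, the highest in CO library 1. Of 4 tested genes of monoamine neurons 0 rose and 3 fell, with sums of 3.15 to 22.5 CPM in CO and 16.8 to 245 in NC, the highest in NC library 1. Of 7 striatum markers 1 rose and 0 fell, with sums of 1510 to 2800 CPM in CO and 286 to 1700 in NC. The part of tissue composition in the level of Fam131a was not tested, and in bulk samples fewer cells of a type and less RNA per cell cannot be told apart.

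**Figure D3:**
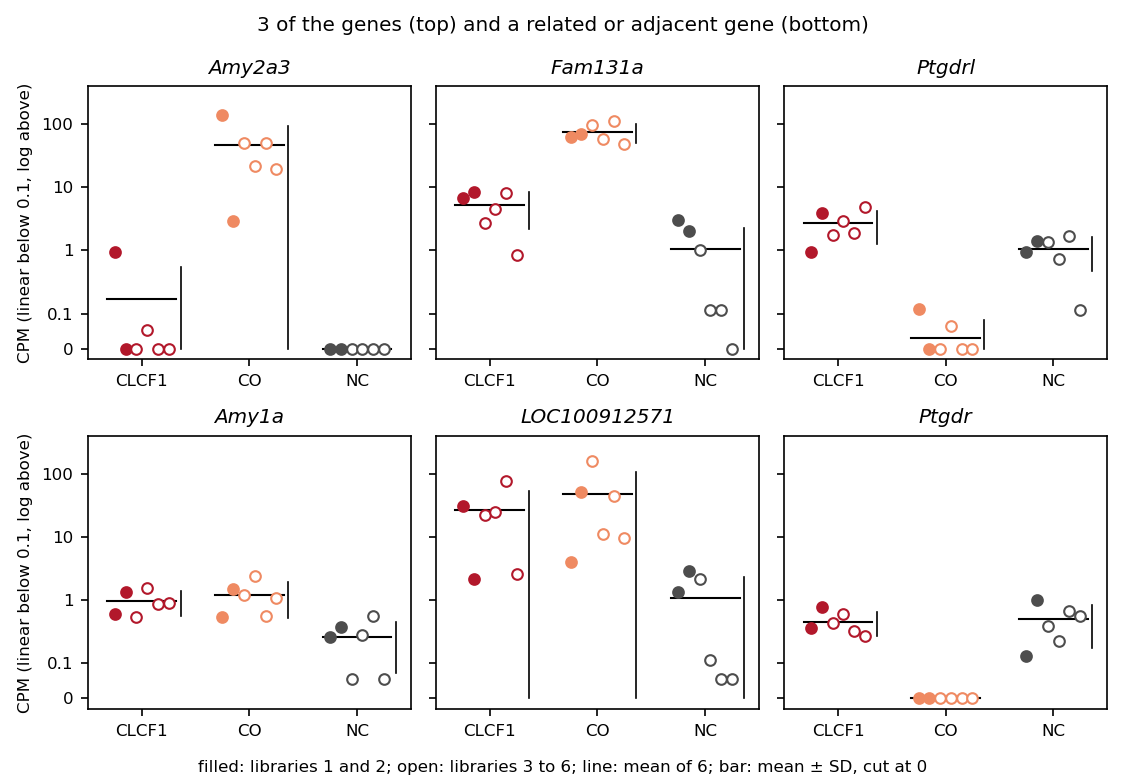
CPM per library of Amy2a3, Fam131a and Ptgdrl (top) and of Amy1a, LOC100912571 and Ptgdr (bottom) in the CLCF1, CO and NC groups, on an axis that is linear below 0.1 and logarithmic above. Amy1a averages 0.975 CPM in CLCF1, 1.21 in CO and 0.266 in NC, LOC100912571 26.6 in CLCF1, 47.2 in CO and 1.10 in NC, and Ptgdr is at 0 in all 6 CO libraries.

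Zfp862 (chromosome 4, positions 78140483 to 78160638, plus strand) was present in CLCF1 and NC and nearly absent in CO. Its CLCF1 libraries held 0 to 42 counts with a median of 19.5. CO library 2 held 3 counts and the other CO libraries 0, while NC libraries held 16 to 51 with a median of 35. CO and NC did not overlap, but CLCF1 library 1, with 0 counts, stood with CO. The mean was 1.15 ± 0.874 CPM in CLCF1, 0.0322 ± 0.0790 in CO and 1.83 ± 0.800 in NC. On the sums CO was 58.5-fold lower than NC (95% exact binomial interval 19.7 to 286) and CLCF1 37.7-fold higher than CO (12.6 to 185). These intervals cover counting error only and leave out the spread between libraries. All 3 counts of CO were in library 2, and in libraries 1 and 2 alone CO was 13.5-fold lower than NC and CLCF1 12.1-fold higher than CO. Without CO library 2, CO stood at 0, and the fitted log2 fold changes were -8.02 and 7.36, against -5.57 ± 0.92 and 4.91 ± 0.94 with it. Fitted values against a group at 0 depend on the fit and are no bound. CLCF1 and NC overlapped, with a log2 fold change of -0.66 ± 0.61. The Swiss-Prot entry of Zfp862 stood on no other row. RefSeq gives it 4 transcript starts. The window of the second holds CCAAT, that of the fourth holds TGACG, and the other 2 hold none of the 5 motifs.

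The nearest tested genes did not pass in CO against NC. Atp6v0e2, a proton pump subunit gene 7.48 kb away, was at 159 ± 33.1 CPM in CLCF1, 172 ± 30.7 in CO and 161 ± 28.6 in NC (CO against NC 0.10 ± 0.16, adjusted p = 0.719). Zfp467, 65.1 kb away on the other side, had a log2 fold change of -0.82 ± 0.36 (adjusted p = 0.135). In CLCF1 against CO, Lrrc61 rose (0.55 ± 0.15, adjusted p = 0.0173) and so did Rarres2, the chemerin gene (1.03 ± 0.22, adjusted p = 0.00449). Sspo, the gene of SCO-spondin, a protein secreted by the subcommissural organ, lies beside Zfp862 (positions 78080310 to 78133654). It had 0 counts in CLCF1 libraries, 2, 1, 3, 0, 0 and 0 in CO libraries 1 to 6, and 75, 1, 29, 170, 38 and 22 in NC libraries 1 to 6. Sspo was too low to be tested and is named after its values were seen. NC library 2 had 1 count of Sspo and 30 of Zfp862, so the genes did not go together in every library. A list of other zinc finger protein genes and of co-repressor genes that KRAB zinc finger proteins recruit held 21 tested genes. Of these, 0 passed in CO against NC by edgeR, beside 12.7% of all genes; 6 had an unadjusted p under 0.05, and 0 passed by DESeq2. In CLCF1 against CO, Dnmt3a, a DNA methyltransferase gene, rose (1.60 ± 0.50, adjusted p = 0.0342), a call lost without CO 4, 5 or 6 or CLCF1 2 or 5 (adjusted p 0.0685 to 0.0958).

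Ptgdrl (chromosome 15, positions 18088897 to 18096039, minus strand) was nearly absent in CO and highest in CLCF1. Its CLCF1 libraries held 16 to 89 counts with a median of 44. CO library 1 held 2 counts, CO library 4 held 1 and the other CO libraries 0, while NC libraries held 2 to 30 with a median of 19. CLCF1 and CO did not overlap, and the lowest NC library held as many counts as the highest CO library. The mean was 2.70 ± 1.44 CPM in CLCF1, 0.0305 ± 0.0505 in CO and 1.03 ± 0.569 in NC. On the sums CO was 33.4-fold lower than NC (95% exact binomial interval 11.1 to 164, counting error only) and CLCF1 87.4-fold higher than CO (29.6 to 426, counting error only). Without CO library 1, which held 2 of the 3 CO counts, these ratios were 82.6 and 216. They were 19.3 and 41.5 in libraries 1 and 2 alone. CLCF1 was 2.62-fold higher than NC (log2 fold change 1.38 ± 0.50).

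Ptgdr, the receptor gene whose Swiss-Prot entry Ptgdrl shares, lies on the opposite strand of chromosome 15 (start 19195666) and was absent from CO as well. The CLCF1 libraries held 5 to 16 counts, its CO libraries 0 and its NC libraries 2 to 22. CLCF1 was at least 14.9-fold higher than CO, and CO at least 16.8-fold lower than NC, with 3 counts over the CO group as the floor. CLCF1 and NC overlapped, with 0.460 ± 0.193 CPM in CLCF1 and 0.502 ± 0.325 in NC. Ptgdr had too few counts to be tested and shares libraries, and possibly reads, with Ptgdrl. In RefSeq GRCr8 the symbol Ptgdrl is a synonym of both Ptgdr and Ptgdrl1.

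The rest of the prostanoid pathway had 19 tested genes, of which 1 rose, 2 fell and 16 did not pass in CO against NC, and 3 rose and 4 fell in CLCF1 against CO, beside 12.7% and 17.0% of all genes called. Ptgds, the main prostaglandin D2 synthase of brain, fell in CO against NC (-0.88 ± 0.20, adjusted p = 0.00870), to 1994 ± 609 CPM in CO against 3661 ± 949 in NC. It rose in CLCF1 against CO (0.72 ± 0.20, adjusted p = 0.0185), to 3285 ± 607 CPM in CLCF1. Hpgds, the hematopoietic prostaglandin D2 synthase, rose in CLCF1 against CO (1.62 ± 0.33, adjusted p = 0.00341). It fell in CO against NC (-1.07 ± 0.34, adjusted p = 0.0429), a call lost on leaving out any 1 of 12 libraries (adjusted p 0.0515 to 0.096), all but NC 5, CO 2 and CLCF1 1, 2, 3 and 6. Both synthases of the receptor's ligand thus had the same direction as Ptgdrl in these comparisons, which share the CO libraries. Ptges, a prostaglandin E2 synthase, went the other way, with a rise in CO against NC (1.58 ± 0.27, adjusted p = 0.00153) and a fall in CLCF1 against CO (-1.36 ± 0.27, adjusted p = 0.00272). Ptgs2, the inducible cyclooxygenase, fell in CLCF1 against CO (-1.21 ± 0.34, adjusted p = 0.0198), as did the carbonyl reductase Cbr1 (-0.99 ± 0.29, adjusted p = 0.0234). The thromboxane receptor gene Tbxa2r fell in CLCF1 against CO (-2.30 ± 0.46, adjusted p = 0.00287). It fell in CLCF1 against NC too (-1.56 ± 0.46, adjusted p = 0.0401), a call lost on leaving out any 1 of 9 libraries (adjusted p 0.0528 to 0.0901), NC 1, 2, 3 or 5 or CLCF1 2 to 6.

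Markers of tissue around the brain were read beside Ptgdrl and Ptgds. Of 8 meningeal fibroblast markers, 5 fell and 0 rose in CO against NC, and 3 rose and 0 fell in CLCF1 against CO, beside 12.7% and 17.0% of all genes called. In CLCF1 against NC 0 of the 8 passed by edgeR or DESeq2, and 0 had an unadjusted p under 0.05. Their sum ran from 546 to 863 CPM in CLCF1, 183 to 834 in CO and 744 to 1010 in NC, with none at 0 in every library. Of 6 choroid plexus markers tested, 0 rose and 1 fell in CO against NC, and 5 rose and 0 fell in CLCF1 against CO. Their sum ran from 65.8 to 5960 CPM in CLCF1, 0.882 to 42.3 in CO and 7.15 to 219 in NC. Within CLCF1 that sum was 5960 CPM in library 1, where Ptgdrl was at 0.953 CPM, the lowest of the group, and 65.8 CPM in library 2, where Ptgdrl was at 3.89 CPM. Blood markers summed to 57.7 to 221 CPM in CLCF1, 2.10 to 40.5 in CO and 13.9 to 687 in NC. The part of these tissues in the level of Ptgdrl was not tested. Beside Ptgdrl on the chromosome, an unnamed locus 93.5 kb away went against it, with a rise in CO against NC (2.73 ± 0.51, adjusted p = 0.00298). That locus fell in CLCF1 against CO (-1.75 ± 0.49, adjusted p = 0.0191), a call lost without CO 1 (adjusted p = 0.0507). Fam107a on the other side did not pass in any comparison (CO against NC -0.24 ± 0.25, adjusted p = 0.548).

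**Figure D4:**
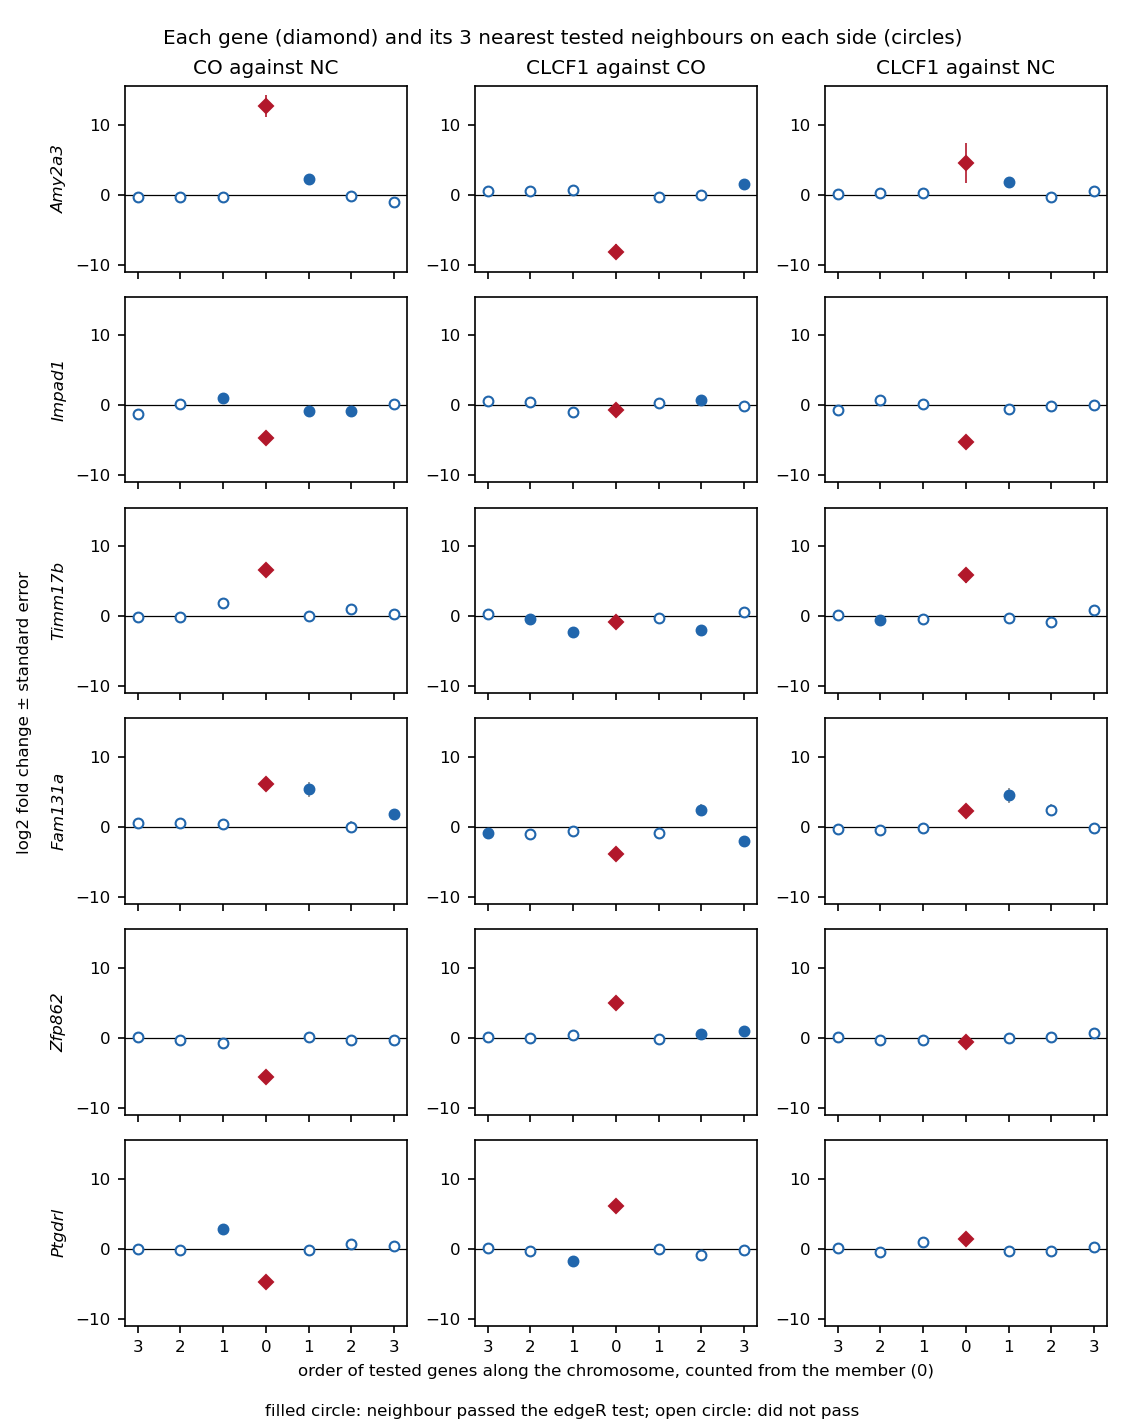
Log2 fold change with its standard error of each of the 6 genes (diamond) and of the 3 nearest tested genes on each side (circles, filled where edgeR's test was passed), by order along the chromosome, in the 3 comparisons. Beside Fam131a, at 6.16 in CO against NC, the next gene at higher coordinates, LOC100912571, is at 5.38.

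Over the 36 neighbours, 7 passed in CO against NC (19.4%), 11 in CLCF1 against CO (30.6%) and 3 in CLCF1 against NC (8.33%), beside 12.7%, 17.0% and 9.26% of all genes tested. Rows with a copy under the same Swiss-Prot entry were 4 of the 6 genes, Impad1, Timm17b, Fam131a and Ptgdrl, and 18.01% of tested rows with an entry. Amy2a3 and Zfp862 had none.

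Likeness across the 18 libraries was measured by Pearson's r of log2 CPM, as a description, since the libraries share groups and libraries 3 to 6 stood apart as given above. Amy2a3 and Fam131a had an r of 0.83 with each other, and Amy2a3 and Zfp862 of -0.90. Closest to Amy2a3 were LOC100365995 (0.94), the chemokine gene Ccl3 (0.92) and LOC690617 (0.92). Ccl3 averaged 0.115 ± 0.160 CPM in CLCF1, 5.21 ± 3.38 in CO and 0.108 ± 0.148 in NC. Closest to Impad1 were Ghdc (0.93), AABR07073045.1 (0.91) and Ddx20 (0.88). AABR07073045.1 averaged 0.0243 ± 0.0596 CPM in CLCF1, 0.293 ± 0.284 in CO and 7.72 ± 4.15 in NC. Closest to Timm17b were AABR07061980.1 (0.88), Tbc1d10b (0.84) and LOC100911994 (0.84). Closest to Fam131a were AC095267.2 (0.94), Dedd2 (0.94) and Irak2 (0.91), a kinase of interleukin-1 receptor signalling. Closest to Zfp862 were the nicotinic receptor gene Chrnb3 (0.89), RGD1565635 (0.87) and Dph1 (0.86). Closest to Ptgdrl were Irak4 (0.91), Dcdc2 (0.90) and Cenpf (0.89). Irak4, which acts with Irak2 in the same receptor complex, averaged 7.12 ± 1.59 CPM in CLCF1, 2.77 ± 0.749 in CO and 5.03 ± 1.45 in NC.

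Switches between groups were counted over all 34873 genes. A switch was defined as 1 count or less in each of 6 libraries of one group and 10 or more in each of 6 of the other. The 34873 include rows with too few counts to meet this rule in any group, which lowers the shares below. In CO against NC 5 genes were on in CO (0.0143%) and 2 off (0.00574%). Amy2a3 was the one of the 6 genes that met this rule, and it met it in CO against NC. The others were RT1-CE16, a class I histocompatibility gene, Npvf, a neuropeptide gene, Sfn, AC126148.3, Gpr31 and AABR07028917.1. In CLCF1 against CO 6 were on (0.0172%) and 3 off (0.0086%), among them Npvf and the chemokine gene Cxcl2, both off in CLCF1, and LOC102547954, Prr11 and LOC684762, on in CLCF1. In CLCF1 against NC 7 were on (0.0201%) and 5 off (0.0143%), among them RT1-CE16, RT1-CE10 and RT1-Ba on in CLCF1, and Lilrb3l and AABR07028917.1 off.

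Genes of families that differ between rat strains, histocompatibility and globin genes, were read because the labels name no strain. RT1-CE16 was off in NC and averaged 26.5 ± 5.60 CPM in CLCF1 and 12.7 ± 9.40 in CO. The 15 genes summed to 217 to 360 CPM in CLCF1, 51.2 to 155 in CO and 124 to 934 in NC. Of 14 tested, 2 rose and 5 fell in CO against NC, beside 12.7% of all genes called. The sum includes Hba1 and Hbb, which are blood markers as well, and single genes had other orders. RT1-CE10 had 222 counts in CLCF1, 199 in CO and 0 in NC, and RT1-CE5 had 3, 188 and 454 in the same order. Hbb had 19, 0 and 10586 counts, and RT1-A1 had 846, 565 and 683. These genes are named after their values were seen. Whether strain or parentage has a part in any of the 6 genes was not tested.

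Single libraries of one group differed by switches too. With 1 count or less in one library and 10 or more in the other, 838 genes were switched between CLCF1 libraries 1 and 2, 401 between CO libraries 1 and 2 and 350 between NC libraries 1 and 2. Amy2a3 (16 and 0 counts) and Zfp862 (0 and 42 counts) were among those of CLCF1. Pairs of libraries 1 and 2 from different groups gave 275 to 569 such genes for CO against NC, 485 to 686 for CLCF1 against CO and 413 to 772 for CLCF1 against NC, ranges that together hold the CO and NC counts within groups and end below that of CLCF1. Pairs among libraries 3 to 6 of a group gave 82 to 100 genes in CLCF1, 134 to 165 in CO and 118 to 128 in NC.

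**Figure D5:**
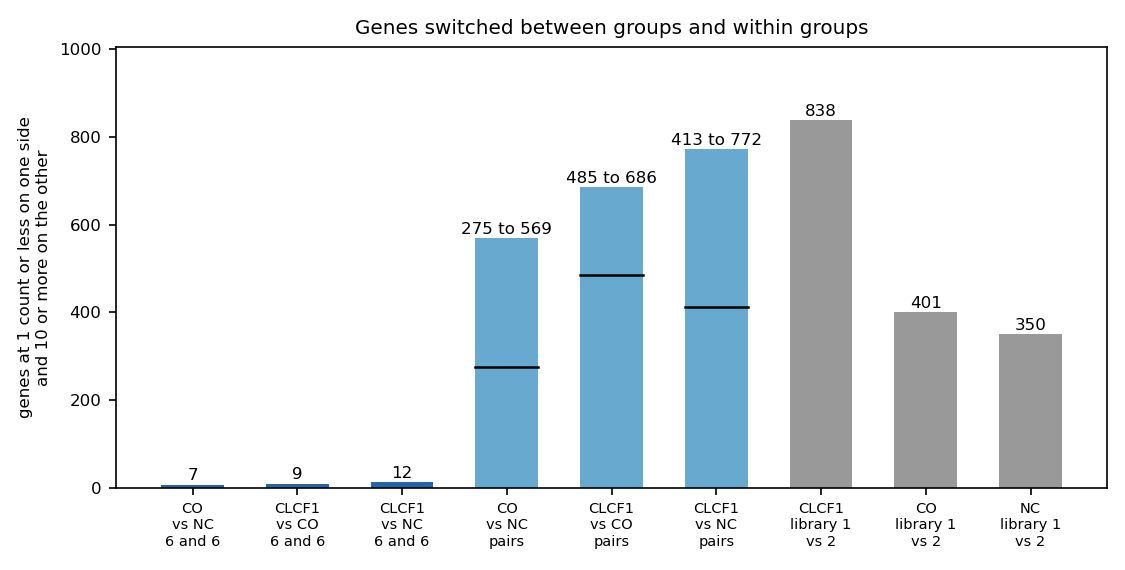
Number of genes switched between groups over all 6 libraries of each (dark bars), between single libraries 1 or 2 of different groups (light bars, with the line at the lowest and the top at the highest of 4 pairs) and between libraries 1 and 2 of one group (grey bars). The counts within CLCF1, CO and NC are 838, 401 and 350, and pairs between groups range from 275 to 772.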

How the data were processed

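RNA-seq was compared in 18 libraries of rat brain, 6 per group, with groups and library numbers from the titles. Per the labels' protocols, total RNA went into a SMARTER mRNA-Seq kit. The authors deposited 1 table of raw counts, whole numbers for each gene and library, with rat gene IDs, symbols and coordinates. Neither aligner, counter, strand setting nor rat build is given in these sources, and the submitters' processing notes list only the mouse builds GRCm38 and mm10. The table holds 34873 rows, of which 2328 are unnamed loci.

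Counts were fitted with edgeR 4.0.16 in R 4.3.3 (TMM scaling, filterByExpr with defaults, robust quasi-likelihood fit of all 18 libraries). The 3 contrasts were adjusted over the 16581 genes tested, with a threshold of 0.05. The common dispersion was 0.0972. Each standard error is the fold change over the root of its F statistic, and CPM from counts over TMM-scaled library sizes. With a group at 0, a fold was taken against 3 counts over the group, and a group of 1 to 3 counts gave a count ratio (95% exact binomial interval), which covers counting error only. On simulated counts with 200 genes changed by a log2 fold of 2, 98%, 97% and 98% were recovered for CO over NC (16367 genes), CLCF1 over CO (16388) and CLCF1 over NC (16355). False calls numbered 7, 6 and 13. The changed genes were drawn from genes with high mean counts, and all 18 libraries were simulated as independent. These shares therefore do not cover genes with few counts, or libraries 3 to 6 if they are not independent.

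The 6 genes, the related lists, the marker lists and the comparisons were chosen with earlier results of these data known. Genes named beside the 6 followed 1 rule. It takes the nearest tested gene on each side and any of 3 per side that passed, rows that overlap one of the 6, up to 6 passing genes with the smallest p of each related list, and the nearest relative. It also takes the 3 genes with a symbol, a mean CPM of 1 or more and the highest r of log2 CPM (prior count 2), and up to 5 switched genes per comparison beside the strain list. Some genes on the lists are not reported here. Promoters came from RefSeq GRCr8. Alternatives were DESeq2 1.42.0, DESeq2 size factors or library size alone, a filter left out or made stricter (at least 10 counts in 6 libraries, mean CPM of 1 or more), the 2 groups compared alone, the library number as a block, libraries 1 and 2 or 3 to 6 alone, other count limits for a switch, and leaving out each library.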

Additional observations from a re-analysis of the deposited data

Results flagged for a closer look

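Among 25 sets of 6 libraries (the 6 genes, their relatives and copies in each group), 6 had 1 library far off by Dixon's criterion. Chance gives about 1 in 20 for values with a normal distribution. Counts near 0 do not have one, and the 6 genes were chosen for a group near 0, so no excess can be read here. Amy2a3 stood out in CLCF1 library 1 at 0.953 CPM, with the next CLCF1 library at 0.0543, and in CO library 1 at 137 CPM, with the next at 49.9. Impad1 in NC library 6 was at 12.5 CPM, with the next at 7.22. Timm17b in NC library 1 was at 0.133 CPM and Zfp862 in CO library 2 at 0.193 CPM, with all other libraries of their group at 0. The criterion flags any group with 1 library above 0, however few its counts. LOC100912571 in CO library 3 was at 162 CPM, with the next at 52.0. Of these 6 libraries, 4 were library 1 or 2 of their group.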

How the results depend on the processing

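No result changed direction under any of the alternatives. Without a filter 4291, 5645 and 4292 genes passed in CO over NC, CLCF1 over CO and CLCF1 over NC (this order below), and DESeq2 called 2334 in CLCF1 against NC. In libraries 1 and 2 alone edgeR called 4, 8 and 2 genes (594, 817 and 418 at an unadjusted p under 0.05), and in libraries 3 to 6 alone 918, 1436 and 736. Of the neighbours, 0, 0 and 0 passed in libraries 1 and 2 alone by edgeR (3, 4 and 0 unadjusted), 4 and 6 in libraries 3 to 6 in the comparisons with CO, and 5 by DESeq2 in CLCF1 against NC. Of the related genes, 0, 0 and 0 passed in libraries 1 and 2 alone by edgeR (4, 3 and 2 unadjusted) and 6, 11 and 1 in libraries 3 to 6. The stricter filter gave 7 related genes in CO against NC and 3 in CLCF1 against NC, the 2 groups alone 13 in CLCF1 against CO, and DESeq2 14 in CLCF1 against NC. Switched genes numbered 2, 0 and 4 with 20 counts as the upper limit, 2, 4 and 7 with limits of 3 and 20, 19, 14 and 26 in libraries 1 and 2 alone and 56, 88 and 100 in libraries 3 to 6. The cause of these shifts was not tested, beyond the smaller number of libraries or the genes added by the setting.

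With each library left out, genes called ranged from 1672 to 2169, 2427 to 3033 and 1219 to 1798 in the 3 comparisons. Neighbours called ranged from 5 to 9, 9 to 13 and 2 to 4, related genes from 8 to 12, 14 to 22 and 3 to 10, and switched genes from 7 to 16, 9 to 25 and 12 to 27. Same-numbered libraries of different groups deviated from their group means with correlations of -0.0283 to 0.149, and 1 of 18 pairs was over 0.1. For libraries 1 and 2, the same number was the best match in CO with NC (0.0505 and 0.0558). It was also the best match in CLCF1 with CO (0.0551 and 0.149), but not in CLCF1 with NC. Whether libraries 1 and 2 are paired is thus not settled, and the main fit left the libraries unpaired. With the library number as a block, 1944, 2787 and 1477 genes, 6, 11 and 4 neighbours and 10, 18 and 7 related genes passed. At these depths a level below about 0.03 CPM per group could not be told from 0.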
